A study of Mus musculus with 8 samples.

Results

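The genes described here are 40 genes of the mitotic spindle, the kinetochore and cytokinesis, taken by symbol from a list and not by their values, out of 52784 genes in the table of estimated counts. Of the table's genes, 25066 had a count in at least 1 library and 13940 had a mean of at least 1 CPM (counts per 1000000 counts of a library) over the 8 libraries. All 40 genes were in the table and passed that mean. They are called mitosis genes or members below.

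RNA was sequenced from mononuclear cells of 1 week old pups, in 8 pooled libraries, 1 for each cell origin and treatment. The pups were F1, with a BALB/c father and a CD11c-DTR mother on the C57BL/6 (B6) background, in which the promoter of CD11c drives a diphtheria toxin receptor, so that diphtheria toxin (DT) transiently removes CD11c+ dendritic cells (DC). Dams were given DT at 5 ng/g or saline on embryonic day 13. In-utero transplantation (IUT) placed 5000000 donor bone marrow mononuclear cells into the liver of each fetus on embryonic day 14. The donor was B6 in mIUT (saline-treated dams), and BALB/c in pIUT (saline-treated dams) and in DC-depleted pIUT (DT-treated dams). Uninjected pups received no donor cells, and their dams had been given DT or saline. Trafficked maternal cells were sorted by H2K-b and recipient cells by H2K-d from whole-body harvests, first on magnetic columns and then by flow cytometry. F1 cells carry both markers, B6 donor cells carry the maternal marker and BALB/c donor cells the recipient marker, so the markers by themselves do not part F1, donor and maternal cells. All 8 groups share the mating, the age at harvest and the pooling of pups, but by the study's account the pools were unequal, with the most pups in the uninjected pool, which is the reference below. The part of pool size in any difference was not tested.

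Entry into mitosis is driven by Cdk1 with its cyclins and by the Polo-like and Aurora kinases. Chromosomes are then held by kinetochores, protein assemblies on the centromere that bind spindle microtubules, while the spindle checkpoint delays anaphase until each chromosome is attached. Anaphase starts when the anaphase-promoting complex marks securin and cyclin B for destruction, and the central spindle and a contractile ring then part the daughter cells. Most of these genes are transcribed late in the cell cycle, so that their RNA is used as a mark of dividing cells, and in pups of this age erythroid, granulocytic and lymphoid precursors divide in marrow, spleen and liver.

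With 1 library a group, no test of a treatment within an origin was made, and every such difference below is between libraries, not between conditions. Origin was tested over the 4 treatments. Treatments were not tested over the origins, as both libraries of a treatment come from the same group of pooled pups. Values are given as CPM after TMM scaling (trimmed mean of M values), as ratios of CPM, or as log2 ratios, in which a count under 3 was set to 3. A fold against 1 to 3 counts is the ratio of the measured values with its counting interval, without that floor, and a fold against 0 counts is a lower bound against 3 counts. A gene is counted as higher or lower where its ratio is at least 4-fold. Intervals are at the 95% level and cover only the counting error of reads. They cover neither variation between pools, with 1 library a group, nor amplification copies, since the reads carry no molecular identifiers. The libraries held 38543457 to 47965130 counts, and a count of 0 allows a level of up to 0.0547 to 0.105 CPM (3 counts in a library). In whole-cell pools, fewer dividing cells and less RNA per cell cannot be told apart.

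Several libraries went against their labels or stood apart, and no group can be given without its library. Y-linked genes summed to 0 CPM in the maternal uninjected library, but to 118, 29.3 and 29.9 CPM in the maternal mIUT, pIUT and DC-depleted pIUT libraries, although dams have no Y chromosome. H2-Ea, which B6 mice do not express, was at 0 CPM in maternal uninjected and maternal pIUT cells and at 8.03 and 5.39 CPM in maternal mIUT and DC-depleted pIUT cells. In recipient cells, which as F1 or BALB/c cells carry an expressed copy, it was at 0.558 CPM in the uninjected library, beside 4881 CPM for Cd74, another class II gene, and at 11.8, 60.4 and 68.4 CPM after mIUT, pIUT and DC-depleted pIUT. Ptprc, the pan-leukocyte gene that encodes CD45, was at 2.64 CPM in the maternal DC-depleted pIUT library and at 70.2 to 459 CPM in the other 7 libraries. Of genes with at least 10 CPM on average in the other libraries, 19.2% were at 3 counts or fewer in recipient uninjected cells and 16.2% in maternal mIUT cells, against 0.625% to 7% in the other 6 libraries. Cell markers also differed between the libraries. The 12 erythroid markers summed to 91910, 20986, 131129 and 182132 CPM in the maternal uninjected, mIUT, pIUT and DC-depleted pIUT libraries, and to 124784, 213, 40430 and 26240 CPM in the recipient libraries in the same order, with 4 and 3 of the markers at 0 in the maternal and recipient mIUT libraries. The 9 markers of mature neutrophils, none of them at 0, summed to 175002 and 291650 CPM in the maternal and recipient mIUT libraries and to 2265 to 50669 CPM elsewhere. The 8 markers of mature B cells summed to 28281 and 6223 CPM in the maternal and recipient uninjected libraries and to 57.5 to 843 CPM in the other 6. In maternal uninjected, mIUT, pIUT and DC-depleted pIUT cells the 6 markers of neutrophil progenitors summed to 40.2, 2285, 9.90 and 607 CPM, with 4 of them at 0 in maternal pIUT, and in recipient cells to 6413, 1881, 680 and 14221 CPM. The 7 hepatocyte markers summed to 47.5, 4308, 149 and 573 CPM in maternal cells and to 10215, 25.8, 5.14 and 665 CPM in recipient cells. Of the sum in recipient uninjected cells, the reference of the recipient comparisons, Afp took 9055 and Apoa1 1039 CPM, and Apoa2 was at 0 there. By the median of the hepatocyte markers that library stood at 37.8 CPM, below recipient DC-depleted pIUT at 80.6 CPM. The 7 markers of hematopoietic progenitors summed to 68.4, 51.0, 96.7 and 53.0 CPM in maternal cells, with 1, 6, 4 and 2 of them at 0, and to 134, 77.2, 175 and 446 CPM in recipient cells, with 3 at 0 in the uninjected library. The 9 T-cell markers summed to 2191, 503, 140 and 406 CPM in maternal and 586, 694, 3727 and 900 CPM in recipient cells. Their part in the results below was not tested.

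Promoters of mitosis genes are known to carry the cell cycle genes homology region (CHR) and CCAAT boxes, which bind the MuvB complexes and NF-Y. RefSeq promoter windows, from 250 bases before to 50 bases after the start of transcription, were found for 34 of the 40 members. The motifs searched were TTTGAA for the CHR and CCAAT, each on either strand. Of the 34 members, 26 (76.5%) held TTTGAA, 18 (52.9%) held at least 2 CCAAT boxes and 16 (47.1%) held both. Among all 27025 genes with such windows the shares were 20.2%, 13.3% and 2.42%. Of 67 other mitosis genes with windows, 36 (53.7%) held TTTGAA, 27 (40.3%) at least 2 CCAAT boxes and 15 (22.4%) both. Of 37 DNA replication genes with windows, 6 held TTTGAA, 12 at least 2 CCAAT boxes and 2 both. These matches describe the letters and are no evidence of binding.

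The sequences below are shown because their genes have the highest mean CPM among members with both motifs. They are read 5′ to 3′ on the gene's own strand, with TTTGAA and CCAAT, or their reverse complements, in capitals.
Cenpa (GRCm38.p6, chr5:30666636-30666935, plus strand): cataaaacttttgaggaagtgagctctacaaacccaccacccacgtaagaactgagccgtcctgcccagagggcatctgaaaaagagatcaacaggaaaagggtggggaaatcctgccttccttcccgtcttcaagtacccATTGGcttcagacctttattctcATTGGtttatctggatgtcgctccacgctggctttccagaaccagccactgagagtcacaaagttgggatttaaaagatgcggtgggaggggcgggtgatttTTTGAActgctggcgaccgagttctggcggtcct
Ube2c (GRCm38.p6, chr2:164769679-164769978, plus strand): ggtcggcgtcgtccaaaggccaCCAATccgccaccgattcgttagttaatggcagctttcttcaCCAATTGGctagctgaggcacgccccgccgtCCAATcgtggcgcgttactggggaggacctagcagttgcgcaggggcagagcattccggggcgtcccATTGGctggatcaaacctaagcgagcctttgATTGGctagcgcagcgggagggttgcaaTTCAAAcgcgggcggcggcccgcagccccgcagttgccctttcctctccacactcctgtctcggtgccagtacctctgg
Cdc20 (GRCm38.p6, chr4:118437294-118437593, minus strand): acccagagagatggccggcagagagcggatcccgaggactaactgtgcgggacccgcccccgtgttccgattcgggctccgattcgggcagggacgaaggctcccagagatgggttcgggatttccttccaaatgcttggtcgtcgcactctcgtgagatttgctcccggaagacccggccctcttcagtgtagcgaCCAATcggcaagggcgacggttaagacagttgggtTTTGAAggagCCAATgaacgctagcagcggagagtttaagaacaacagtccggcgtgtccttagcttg
Cdk1 (GRCm38.p6, chr10:69352863-69353162, minus strand): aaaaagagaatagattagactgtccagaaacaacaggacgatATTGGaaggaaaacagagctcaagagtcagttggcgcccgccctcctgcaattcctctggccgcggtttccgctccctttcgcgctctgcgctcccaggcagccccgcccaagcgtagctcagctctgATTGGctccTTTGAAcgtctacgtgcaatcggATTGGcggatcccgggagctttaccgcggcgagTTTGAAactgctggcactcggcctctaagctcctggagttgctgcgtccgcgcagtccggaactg
In the window of Cdk1, TTTGAA began 71 and 15 bases before the start of transcription. In that of Ube2c it lay on the reverse strand, with its first printed base 29 bases before the start, and a forward and a reverse CCAAT box overlapped. In that of Cdc20 it began 18 bases before the start, between CCAAT boxes that began 53 and 8 bases before it.

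The next sequences belong to the members that had 0 counts in both uninjected libraries, described further below.
Ttk (GRCm38.p6, chr9:83834439-83834738, plus strand): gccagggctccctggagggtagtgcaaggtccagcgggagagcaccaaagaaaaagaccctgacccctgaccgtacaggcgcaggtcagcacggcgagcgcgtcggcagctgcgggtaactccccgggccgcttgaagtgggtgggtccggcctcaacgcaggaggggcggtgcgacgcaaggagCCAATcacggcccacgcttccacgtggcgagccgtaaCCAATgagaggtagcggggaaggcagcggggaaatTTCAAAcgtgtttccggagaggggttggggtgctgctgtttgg
Cip2a (GRCm38.p6, chr16:48993938-48994237, plus strand): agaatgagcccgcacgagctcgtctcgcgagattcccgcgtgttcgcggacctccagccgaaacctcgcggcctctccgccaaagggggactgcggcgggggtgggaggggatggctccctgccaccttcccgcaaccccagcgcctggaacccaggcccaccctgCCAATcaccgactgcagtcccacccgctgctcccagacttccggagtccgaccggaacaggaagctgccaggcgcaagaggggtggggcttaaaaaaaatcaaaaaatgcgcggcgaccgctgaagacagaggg
Spag5 (GRCm38.p6, chr11:78301341-78301640, plus strand): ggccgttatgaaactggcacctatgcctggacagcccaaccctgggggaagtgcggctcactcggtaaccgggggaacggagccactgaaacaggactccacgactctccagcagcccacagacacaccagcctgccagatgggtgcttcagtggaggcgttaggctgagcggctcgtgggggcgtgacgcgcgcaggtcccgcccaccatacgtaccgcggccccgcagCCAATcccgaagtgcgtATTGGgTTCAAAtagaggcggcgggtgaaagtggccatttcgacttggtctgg
The windows of Ttk and Spag5 held TTTGAA on the reverse strand, with the first printed base at positions 8 and 4 after the start, and 2 CCAAT boxes each. The window of Cip2a held 1 CCAAT box, and the letters TTTGAA were not in it.

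The members took a changing share of the RNA, and the range of a gene over the 8 libraries was 10.9-fold in the median of the 17 members shorter than 3 kb and 113-fold in that of the 23 longer ones. The 40 members together took 7.46 of every 10000 counts in maternal uninjected cells (interval 7.37 to 7.54), 13.9 in maternal mIUT (13.8 to 14), 48.7 in maternal pIUT (48.5 to 48.9) and 42.5 in maternal DC-depleted pIUT cells (42.3 to 42.7). In recipient cells they took 23.8 (23.6 to 23.9), 17.6 (17.5 to 17.8), 40.4 (40.2 to 40.6) and 51.7 (51.5 to 51.9) in the same order. The maternal uninjected library was the lowest of the 8, and both pIUT groups were above both uninjected libraries in either origin. After TMM scaling the summed levels were 739, 1597, 3799 and 4961 CPM in maternal cells and 2357, 2556, 3581 and 3905 CPM in recipient cells. The order of some libraries depended on the scale. After TMM scaling the recipient mIUT library was above the recipient uninjected library and the maternal DC-depleted pIUT library above maternal pIUT, and both orders were the opposite by share of counts. The highest library of the 8 was maternal DC-depleted pIUT after TMM scaling and recipient DC-depleted pIUT by share of counts. The sums also rest on few abundant members. The median CPM of the members was 10.9, 38.8, 73.1 and 20.9 in maternal cells and 55.5, 44.2, 65.8 and 76.0 in recipient cells, so that by the median maternal DC-depleted pIUT was the second lowest of the 8 libraries, and recipient mIUT was below recipient uninjected.

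**Figure D1:**
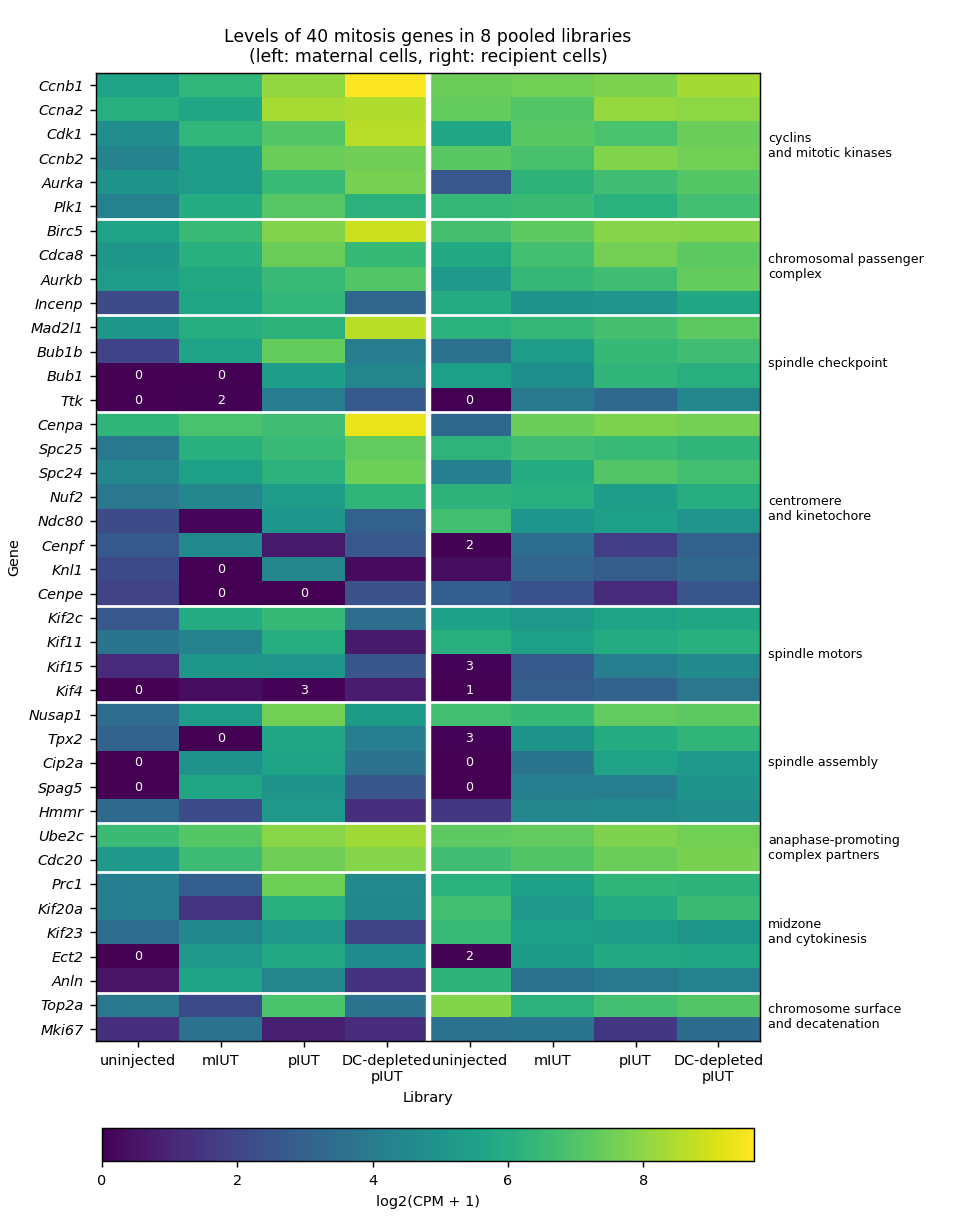
Level of each of the 40 members as log2(CPM + 1), by color, in the 8 pooled libraries (columns; maternal on the left, recipient on the right), with members grouped by role (rows). Digits mark the 21 values at 3 counts or fewer, all of which belong to 11 members, and none of them lies in the maternal DC-depleted pIUT library or in the 3 recipient IUT libraries.

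Of the 40 members, 29 were above 3 counts in every library and 11 were not. In the maternal uninjected library 6 members were at 0, namely Bub1, Ttk, Kif4, Cip2a, Spag5 and Ect2. In the recipient uninjected library 8 members were at 3 counts or fewer, with Ttk, Cip2a and Spag5 at 0, Kif4 at 1, Cenpf and Ect2 at 2, and Kif15 and Tpx2 at 3. The maternal mIUT library had Bub1, Knl1, Cenpe and Tpx2 at 0 and Ttk at 2 counts, and the maternal pIUT library had Cenpe at 0 and Kif4 at 3. All 11 members belonged to the 23 whose canonical transcript is 3 kb or longer, and none to the 17 shorter ones. The share of members at 3 counts or fewer among those with at least 10 CPM in the other libraries was 14.7% in recipient uninjected cells and 11.8% in maternal uninjected cells, beside 19.2% and 4.54% of all such genes. What part incomplete detection has in these zeros was not tested.

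In each role group the members with the highest and the lowest mean CPM are given in full, and that order only chose them, since levels of different genes are compared per kb of transcript. Among the cyclins and mitotic kinases, Ccnb1, which encodes cyclin B1 (chr13:100915153-100923116 in GRCm39, minus strand), had the highest mean. It stood at 46.1, 82.7, 270 and 798 CPM in maternal uninjected, mIUT, pIUT and DC-depleted pIUT cells and at 175, 192, 214 and 325 CPM in recipient cells. The maternal values covered a 17.3-fold range and lay on both sides of the narrower recipient range. Plk1, the Polo-like kinase, had the lowest mean and stood at 18.1, 61.9, 142 and 72.5 CPM in maternal and 85.7, 93.8, 70.5 and 108 CPM in recipient cells. Ccna2 (cyclin A2), Cdk1 and Ccnb2 (cyclin B2) also had their lowest value in a maternal library, with ranges of 7.31-fold, 15.2-fold and 11.7-fold. Aurka, the spindle pole kinase Aurora A, differed from these, as its lowest value of 5.19 CPM was in recipient uninjected cells, beside 30.4 CPM in maternal uninjected and 74.7 to 135 CPM in recipient IUT cells.

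The chromosomal passenger complex joins the kinase Aurora B (Aurkb) with survivin (Birc5), borealin (Cdca8) and the scaffold Incenp, and corrects faulty attachments at the centromere. Birc5 had the highest mean, with 45.9, 89.2, 222 and 469 CPM in maternal and 110, 151, 238 and 229 CPM in recipient cells. Incenp had the lowest mean, with 3.78, 50.7, 83.6 and 8.09 CPM in maternal and 61.3, 30.4, 31.9 and 52.9 CPM in recipient cells. So Birc5 and Incenp did not share an order over the maternal libraries, as Birc5 was at its highest and Incenp at the second lowest after DC-depleted pIUT. Per kb of transcript, Birc5 exceeded Incenp by 11.2-fold (maternal mIUT) to 368-fold (maternal DC-depleted pIUT). Aurkb and Cdca8 covered narrower ranges over the 8 libraries, 4.44-fold and 5.80-fold.

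Among the spindle checkpoint genes, Mad2l1, which encodes the inhibitor that binds Cdc20, was detected in every library, and the kinases Bub1 and Ttk were not. Mad2l1 stood at 33.4, 62.7, 74.0 and 401 CPM in maternal and 70.1, 85.4, 110 and 146 CPM in recipient cells. Ttk, the kinase Mps1, had 0, 2, 789 and 182 counts in maternal and 0, 398, 393 and 1111 counts in recipient cells. Bub1 had 0, 0, 2099 and 659 counts in maternal and 2068, 772, 3503 and 3558 counts in recipient cells. Bub1b, which encodes the checkpoint protein BubR1, was above 3 counts in every library but covered 2.85 to 162 CPM in maternal cells.

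Of the 8 centromere and kinetochore genes, Cenpa, the histone variant that marks centromeres, had the highest mean CPM and Cenpe, a large kinetochore motor, the lowest. Cenpa stood at 77.8, 116, 103 and 657 CPM in maternal cells and at 8.31, 176, 215 and 199 CPM in recipient cells. Its recipient uninjected value was thus the lowest of the 8, and its maternal DC-depleted pIUT value the highest. Cenpe stood at 2.70, 0, 0 and 4.21 CPM in maternal and 6.29, 4.32, 1.24 and 4.91 CPM in recipient cells. Knl1, the scaffold that recruits the checkpoint, had 133, 0, 1038 and 7 counts in maternal and 12, 224, 278 and 442 counts in recipient cells. Cenpf, a large protein of the outer kinetochore, had 204, 883, 32 and 171 counts in maternal and 2, 289, 106 and 377 counts in recipient cells. Cenpe, Knl1 and Cenpf therefore had their highest values in recipient uninjected, maternal pIUT and maternal mIUT cells, a different library each.

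Ndc80, Nuf2, Spc24 and Spc25 encode the NDC80 complex, a rod of 4 subunits in equal number that binds microtubules. Their RNA was not in equal amounts. Per kb of transcript, the highest subunit exceeded the lowest by 4.39-fold to 6.07-fold in maternal pIUT and the 4 recipient libraries, by 9.02-fold in maternal uninjected, 42.1-fold in maternal DC-depleted pIUT and 1082-fold in maternal mIUT cells. In those 3 maternal libraries Ndc80 was the lowest subunit, with 146, 227 and 4 counts, while in recipient uninjected cells it had 5116 counts and Spc24 was the lowest. The range of 1082-fold rests on the 4 counts of Ndc80 in maternal mIUT cells.

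**Figure D2:**
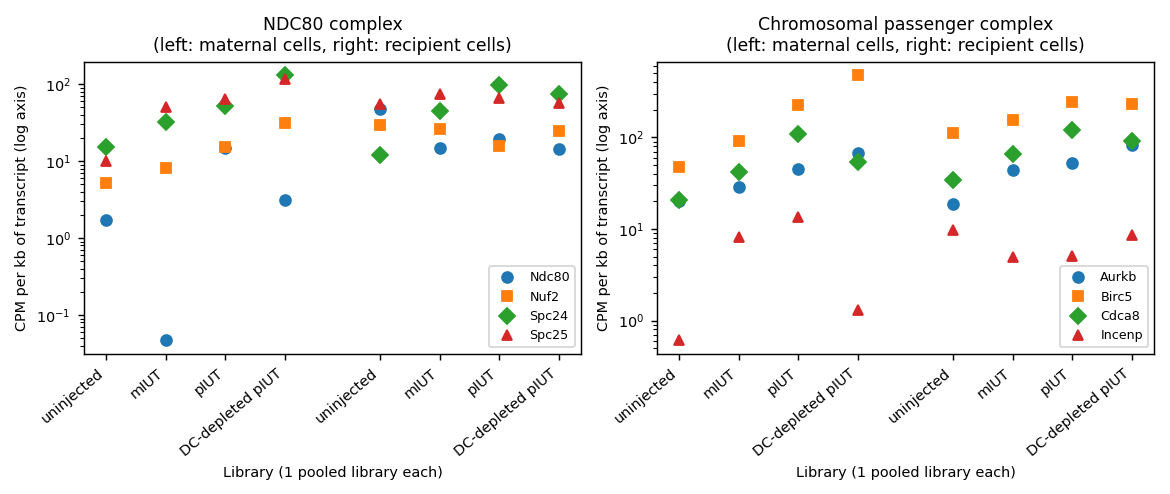
CPM per kb of canonical transcript (log axis) for the subunits of the NDC80 complex (left panel) and of the chromosomal passenger complex (right panel), 1 point per gene and pooled library. Ndc80 lies far below its partners in maternal mIUT (0.0468 CPM per kb) and maternal DC-depleted pIUT (3.11), and Incenp is the lowest passenger gene in all 8 libraries.

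The spindle motors summed to 18.2, 112, 180 and 16.3 CPM in maternal uninjected, mIUT, pIUT and DC-depleted pIUT cells. The first and last of these sums were close while single motors were not, as Kif15 and Kif4 were at least 4-fold higher and Kif11 at least 4-fold lower in DC-depleted pIUT than in uninjected cells. In recipient cells they summed to 110, 91.1, 130 and 158 CPM. Kif2c, a kinesin that shortens microtubules, had the highest mean, with 5.06, 59.5, 86.1 and 9.96 CPM in maternal and 45.0, 35.1, 46.7 and 53.2 CPM in recipient cells. Kif4, a motor of the chromosome arms and midzone on the X chromosome, had the lowest, with 0, 9, 3 and 23 counts in maternal and 1, 179, 338 and 721 counts in recipient cells. So the 3 recipient IUT libraries lay above all 4 maternal libraries for Kif4 and overlapped them for Kif2c. Kif11 (Eg5), the motor that pushes the spindle poles apart, had 465, 731, 3166 and 20 counts in maternal and 3144, 1267, 2687 and 3761 counts in recipient cells.

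Of the spindle assembly genes, Nusap1, which bundles microtubules near chromatin, had the highest mean, with 9.77, 39, 191 and 36.8 CPM in maternal and 106, 87.2, 160 and 146 CPM in recipient cells. Hmmr, a spindle pole protein, had the lowest mean, with 8.89, 3.67, 36.3 and 1.48 CPM in maternal and 1.92, 21.3, 22.7 and 26.2 CPM in recipient cells. Tpx2, which activates Aurora A, had 284, 0, 2552 and 548 counts in maternal and 3, 886, 2760 and 4254 counts in recipient cells. Spag5 (astrin) and Cip2a, an inhibitor of the phosphatase PP2A, had 0 counts in both uninjected libraries and were detected in the other 6, at 162 to 1939 counts for Spag5 and 351 to 2379 counts for Cip2a. In the recipient uninjected library 4 of the 5 spindle assembly genes were thus at 1.92 CPM or lower, beside Nusap1 at 106 CPM.

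Of the partners of the anaphase-promoting complex, Ube2c, its ubiquitin-conjugating enzyme, stood at 95.3, 135, 241 and 306 CPM in maternal and 152, 159, 219 and 192 CPM in recipient cells, the narrowest range of the 40 members (3.21-fold). Cdc20, its activator, stood at 36.3, 97.3, 184 and 236 CPM in maternal and 102, 129, 178 and 209 CPM in recipient cells, a 6.51-fold range. The 2 genes had the same order of the 4 libraries in maternal cells, uninjected, mIUT, pIUT and DC-depleted pIUT.

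Of the midzone and cytokinesis genes, Prc1, which crosslinks the central spindle, had the highest mean CPM and Anln, the scaffold anillin of the contractile ring, the lowest. Prc1 stood at 17.1, 6.28, 180 and 22.4 CPM in maternal and 70.0, 44.5, 78.3 and 74.5 CPM in recipient cells. Anln stood at 0.411, 47.8, 20.0 and 1.70 CPM in maternal and 74.4, 11, 13.9 and 17.9 CPM in recipient cells, so that its uninjected values were the lowest of the maternal and the highest of the recipient values. Ect2, which activates RhoA at the cleavage site, had 0, 1364, 2788 and 827 counts in maternal and 2, 1052, 2547 and 2868 counts in recipient cells. The midzone kinesins Kif20a and Kif23 were highest in recipient uninjected cells, at 108 and 91.7 CPM.

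Top2a, the topoisomerase that untangles sister chromatids, and Mki67, which coats mitotic chromosomes, completed the list. Top2a stood at 13.7, 3.44, 119 and 11.7 CPM in maternal and 230, 72.4, 109 and 134 CPM in recipient cells. Mki67, widely used as a proliferation marker, stood at 1.47, 11.4, 0.791 and 1.33 CPM in maternal and 11.5, 12.6, 1.99 and 9.49 CPM in recipient cells. Mki67 was therefore lowest in the maternal pIUT library, in which the members as a whole were high. Its canonical transcript, of 10.3 kb, is the second longest of the members.

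The first question of the design was how IUT cells differ from cells of uninjected pups, within either origin. The 3 comparisons of an origin share the uninjected library. In maternal mIUT cells, 11 of the 38 members with a ratio were at least 4-fold higher and 5 at least 4-fold lower than in maternal uninjected cells, where 17.6% and 32.7% of all genes tested passed in these directions. The median log2 ratio was 1.04 for members and -0.41 for all genes. Spag5 was at least 650-fold higher (1939 counts against 0) and Tpx2 at least 94.2-fold lower (0 against 284). The highest role group was the spindle motors (median log2 ratio 2.57 over 4 genes), and the kinetochore genes divided, with Spc25 at 2.33 and Knl1 at -5.46.

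In maternal pIUT cells, 28 of 39 members were at least 4-fold higher and 2 lower than in uninjected cells, beside 21.6% and 19.5% of all genes. The median log2 ratio was 2.55 for members and 0.06 for all genes. Ect2 was at least 715-fold higher and Cenpe at least 45.5-fold lower. Every role group had a median above 0, from 1.12 for Top2a and Mki67 to 6.75 for the spindle checkpoint. The 2 lower members were Cenpe and Cenpf, both kinetochore genes with long transcripts (7.91 and 11.2 kb).

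In maternal DC-depleted pIUT cells, 22 of 40 members were at least 4-fold higher and 3 lower than in uninjected cells, beside 19.8% and 24.7% of all genes. The median log2 ratio was 2.05 for members and -0.04 for all genes. All 6 cyclins and mitotic kinases and all 4 checkpoint genes were at least 4-fold higher, while Kif11, Knl1 and Hmmr were lower, Kif11 with 20 counts against 465. Plk1 was at the threshold, with a log2 ratio of 2.00, and at 1.77 by library size, by which 19 members in place of 22 were higher. The midzone and cytokinesis genes had a median of 0.39, with Ect2 at least 325-fold higher and Kif23 at -1.73.

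In recipient cells the share of members that were higher than in the uninjected library was near or below that of all genes. In mIUT, 12 of 40 members were at least 4-fold higher and 1 lower, beside 41% and 18% of all genes. In pIUT the counts were 14 and 3, beside 40.8% and 13.4%, and in DC-depleted pIUT 15 and 1, beside 42.2% and 11.3%. The median log2 ratios of the members were 0.32, 0.79 and 0.97, and those of all genes 0.89, 0.87 and 0.87. Scaled by library size, 4 members were lower in recipient mIUT cells, which moved the share of higher among higher and lower members from 92.3% to 75%, and the median of the members in that comparison was then -0.23.

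Much of the higher count in recipient cells came from members near 0 in the recipient uninjected library. When members with 3 counts or fewer on either side were left out, 4, 6 and 7 of 32 members were at least 4-fold higher in recipient mIUT, pIUT and DC-depleted pIUT cells, beside 18.7%, 15.1% and 14.2% of all genes under the same condition. Ect2, with 2 counts in uninjected cells, was 887-fold higher in mIUT cells with an interval of 245 to 7334. Tpx2, with 3 counts, was 985-fold higher in pIUT cells (337 to 4780) and 1251-fold higher in DC-depleted pIUT cells (428 to 6069). Members with ample counts on both sides differed in how far they moved. Ccnb1 was at log2 ratios of 0.14, 0.29 and 0.90. Aurka, with 251 counts in uninjected cells, was at 3.85, 4.31 and 4.70. Cenpa, with 402 counts there, stood at 8.31 CPM in uninjected and 176, 215 and 199 CPM in the IUT libraries. The lowest ratio was that of Anln in mIUT and DC-depleted pIUT cells (-2.76 and -2.05) and that of Mki67 in pIUT cells (-2.53).

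**Figure D3:**
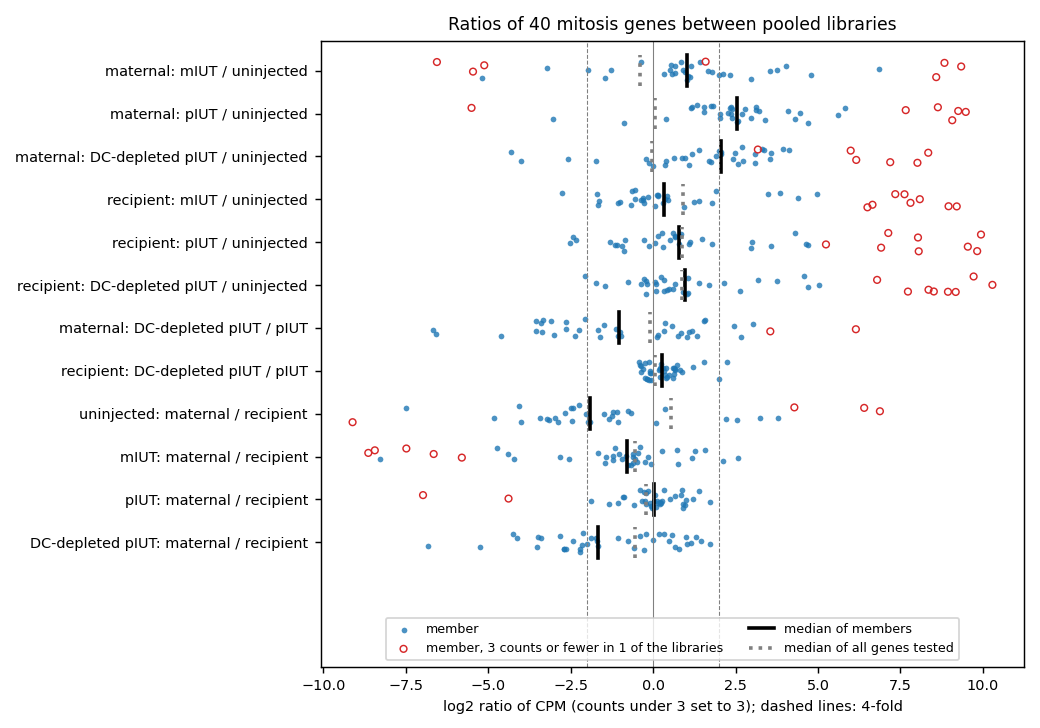
Log2 ratio of CPM of each member (points) in the 12 comparisons between pooled libraries, with the median of the members (black bar) and of all genes tested (dotted grey bar). Open red circles are members with at most 3 counts on either side of a ratio, and the dashed lines mark 4-fold. The members' median exceeds that of all genes by the most in maternal pIUT (2.55 against 0.06). It lies below that of all genes by the most in uninjected maternal against recipient cells (-1.92 against 0.55). Recipient mIUT is another of the comparisons in which it lies below (0.32 against 0.89, or -0.23 for the members when scaled by library size).

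The second question was how depletion of maternal DC before pIUT altered these cells. In maternal cells, 5 of 40 members were at least 4-fold higher and 15 at least 4-fold lower in DC-depleted pIUT than in pIUT, beside 20.3% and 27.1% of all genes, with a median log2 ratio of -1.03 for members and -0.11 for all genes. The 5 higher members were Cenpe, Kif4, Cenpf, Cenpa and Mad2l1, of which Kif4 rested on 23 counts against 3 and Cenpf on 171 against 32. Cenpe was at least 71.0-fold higher (139 counts against 0), Cenpa 6.38-fold (6.19 to 6.57) and Mad2l1 5.42-fold (5.23 to 5.62). Kif11 was 103-fold lower (66.8 to 169) and Knl1 96.8-fold lower (46.8 to 241). Of the spindle assembly genes, 4 of 5 were lower, and of the spindle motors 3 of 4, whereas none of the 6 cyclins and mitotic kinases was lower. These role groups also differ in the length of their canonical transcripts. It is 3.88 to 4.20 kb for spindle assembly genes, 2.74 to 5.11 kb for motors and 1.58 to 4.38 kb for cyclins and kinases. The part of length in the contrast between roles was not tested.

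In recipient cells 39 of the 40 members were within 4-fold between the same treatments. The count was 1 member at least 4-fold higher in DC-depleted pIUT and 0 lower, beside 9.9% and 3.67% of all genes. Mki67 was the member, 4.76-fold higher (3.8 to 6.02) with 520 counts against 90. The other members had log2 ratios from -0.43 for Ndc80 to 1.98 for Cenpe, and the median was 0.27, beside 0.07 for all genes. Mki67, Cenpe and Cenpf, 3 of the 4 longest transcripts of the list, had the highest ratios. Cell markers moved in both directions between these recipient libraries. At least 4-fold higher in DC-depleted pIUT were 5 of 6 markers of neutrophil progenitors, 7 of 7 of hepatocytes, 4 of 7 of hematopoietic progenitors and 6 of 12 erythroid markers, and at least 4-fold lower were 9 of 9 of mature neutrophils and 5 of 9 of T cells. Of 6 markers of B-cell progenitors 3 were higher and 2 lower, and of 9 of monocytes and macrophages 2 were higher and 0 lower. Between the maternal libraries 5 of 6, 2 of 7, 3 of 6 with a ratio and 1 of 12 were higher in the first 4 of these lists, 2 of the hematopoietic progenitor markers were lower, and of the mature neutrophil markers 3 were higher and 3 lower and of the T-cell markers 3 higher and 0 lower. Of the B-cell progenitor markers 2 were higher and 1 lower there, and of the monocyte and macrophage markers 4 higher and 1 lower. Ptprc had a log2 ratio of -4.74 between these maternal libraries. The part of these markers' cells in the members' ratios was not tested.

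The maternal DC-depleted pIUT library also differed by transcript length. Summed CPM of the 17 members shorter than 3 kb was 5.27 times that of the 23 longer members in it, and 1.71 to 3.75 times in the other 7 libraries. It held the highest value of 10 of the 17 shorter members and of 2 of the 23 longer ones. Against maternal pIUT cells the median log2 ratio was 0.36 for shorter and -2.06 for longer members, and 12 of the 15 lower members were among the longer. The same contrast over all genes gave 0.72 for shorter and -1.05 for longer transcripts. In recipient cells the medians were -0.07 and 0.39, beside 0.00 and 0.16 for all genes, and over the 40 members the ratio had an r of 0.63 with the log2 length, beside 0.08 over all genes. The split by length was chosen after values were seen, and the part of RNA quality or of the length of the reads' source molecules in these ratios was not tested.

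**Figure D4:**
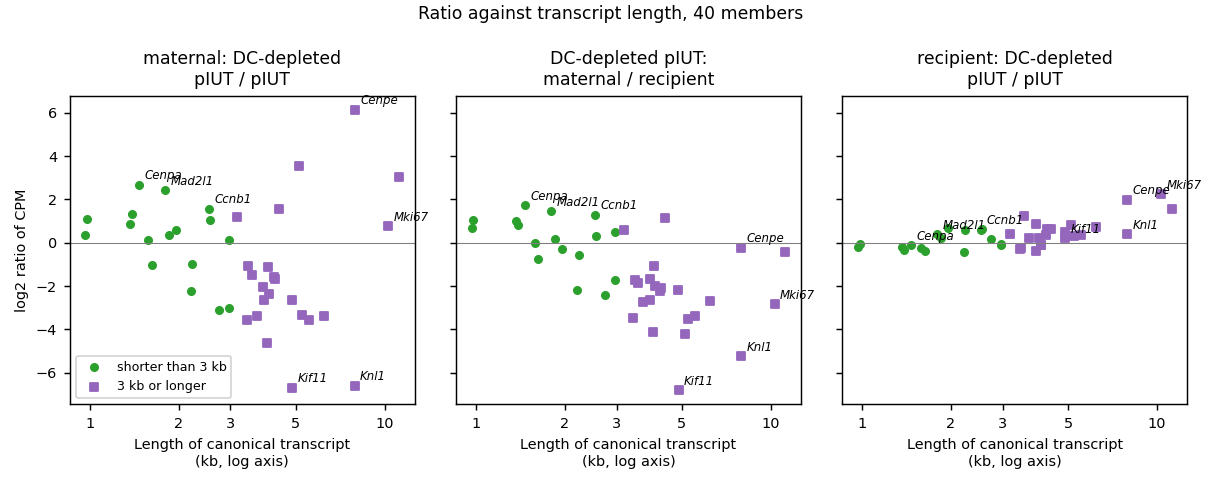
Log2 ratio of CPM against the length of the canonical transcript (kb, log axis) for the 40 members, in maternal DC-depleted pIUT against pIUT cells (left), in maternal against recipient cells of DC-depleted pIUT (middle) and in recipient DC-depleted pIUT against pIUT cells (right). Green circles are members shorter than 3 kb and purple squares the others. In the left and middle panels most squares lie below 0 (medians -2.06 and -2.23). In the right panel Mki67, Cenpe and Cenpf lie highest, at 2.25, 1.98 and 1.55, but not Knl1, which is also among the 4 longest members.

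The third question was how maternal and recipient cells of the same pups differ. Among uninjected pups, 7 of 35 members with a ratio were at least 4-fold higher in maternal cells and 16 lower, beside 36.9% and 15.1% of all genes, and the medians were -1.92 and 0.55. Bub1 was at least 555-fold lower in maternal cells (0 counts against 2068), and Tpx2 118-fold higher (39.9 to 574) on 284 counts against 3. After mIUT, 2 of 40 members were higher and 11 lower in maternal cells, beside 13% and 31.1% of all genes. There Kif15, a kinesin that assists Kif11, was the highest, at a log2 ratio of 2.56, and Tpx2 was at least 399-fold lower.

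After pIUT the origins were close for the members, with 0 higher and 2 lower of 40 beside 16.4% and 19.8% of all genes, and medians of 0.03 and -0.23. By DESeq2 size factors 1 member was also higher, which moved the share of higher among higher and lower members from 0% to 33.3%. The 2 lower members were Cenpe and Kif4, and Kif4 was 126-fold lower (42.8 to 615) on 3 counts against 338. Knl1 had the highest log2 ratio, 1.74. After DC-depleted pIUT, 0 members were higher and 16 lower in maternal cells, beside 6.5% and 27.6% of all genes, and the medians were -1.69 and -0.55. Kif11 was 113-fold lower (73.2 to 186) on 20 counts against 3761, and Cenpa, 3.30-fold higher (3.23 to 3.38), had the highest ratio. By length, the medians were 0.32 for shorter and -2.23 for longer members, beside 0.11 and -1.23 for all genes, and 14 of the 16 lower members were of 3 kb or longer.

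Over the 4 treatments together, maternal and recipient cells were compared in a fit with the treatment as a block (edgeR's quasi-likelihood test with Benjamini-Hochberg adjustment). None of the 40 members and 0 of 13940 genes (0%) had an adjusted p under 0.05, and the smallest adjusted p was 1. At an unadjusted p under 0.05 there were 1 member and 2.09% of all genes. That member was Top2a, with a log2 fold of -3.18 and an adjusted p of 1, lower in maternal cells in 3 of the 4 treatments. The log2 fold was below 0 for 35 of the 40 members (87.5%) and for 56.3% of all genes, with medians of -0.91 and -0.20. With each treatment left out in turn, 0 genes had an adjusted p under 0.05, and 0 to 4 members an unadjusted one.

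Scaling moved all log2 ratios of a comparison by the same amount. Scaled by library size they shifted by -0.63 (maternal against recipient cells of DC-depleted pIUT) to 0.39 (recipient DC-depleted pIUT against uninjected), and by DESeq2 size factors by -0.16 to 0.31. A ratio within a library does not depend on scaling. The summed CPM of the members was 0.350, 0.971, 0.517 and 0.495 times that of 46 DNA replication genes in maternal uninjected, mIUT, pIUT and DC-depleted pIUT cells, and 0.489, 1.18, 0.419 and 0.547 times in recipient cells. As a ratio of the medians it was 0.419, 1.35, 0.766 and 0.169 in maternal and 1.06, 1.43, 0.633 and 0.939 in recipient cells, so that maternal DC-depleted pIUT was the lowest library and recipient uninjected the third highest. Both mIUT libraries were above the other 6 by sums and by medians. Replication genes summed to 1645 and 2168 CPM in them, beside 2109 CPM in maternal uninjected and 4824 to 10024 CPM in the other 5 libraries. In maternal mIUT cells 12 of the 46 replication genes were at least 4-fold lower than in uninjected cells and 3 higher, beside 32.7% and 17.6% of all genes, and in recipient mIUT cells 7 were lower and 11 higher, beside 18% and 41%. In maternal pIUT cells 19 were higher and 1 lower, beside 21.6% and 19.5%, from Pola1, a DNA polymerase subunit, with 2134 counts against 34, to the kinase gene Cdc7, with 5 against 561. In maternal DC-depleted pIUT cells 27 of the 46 were higher and 0 lower, beside 19.8% and 24.7% of all genes. In recipient pIUT and DC-depleted pIUT cells 13 and 12 were higher and 0 lower. The shares of all genes there were 40.8% and 42.2% higher and 13.4% and 11.3% lower.

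**Figure D5:**
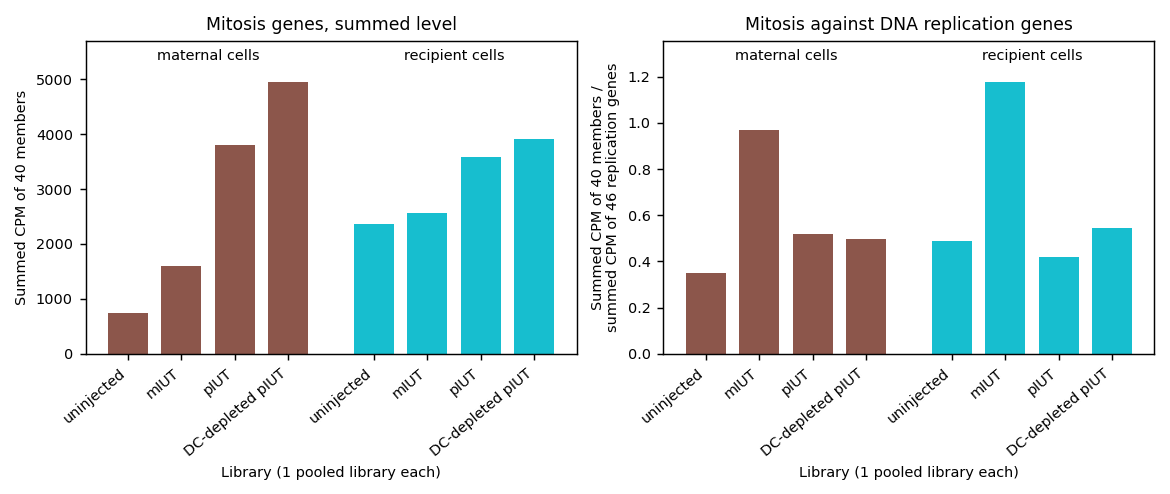
Summed CPM of the 40 members (left) and its ratio to the summed CPM of 46 DNA replication genes (right), 1 bar per pooled library, with maternal libraries in brown and recipient libraries in blue; there are no replicates. The maternal bars on the left stand at 739, 1597, 3799 and 4961 CPM, and on the right the mIUT bars, at 0.971 and 1.18, are the highest of their origin. By the ratio of medians, which is not drawn, maternal DC-depleted pIUT is at 0.169 and recipient uninjected at 1.06.

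A list of 79 other mitosis genes, such as condensins, separase and further kinetochore subunits, was counted in the same way. In maternal cells 20 of 67, 55 of 77 and 49 of 78 with a ratio were at least 4-fold higher than in uninjected cells after mIUT, pIUT and DC-depleted pIUT, beside 17.6%, 21.6% and 19.8% of all genes. In the same order 24, 1 and 2 were lower, beside 32.7%, 19.5% and 24.7%. The highest ratio after pIUT was that of Ncapg2, a condensin subunit, with 4815 counts against 2. In recipient cells 36, 42 and 41 of the 79 were higher, beside 41%, 40.8% and 42.2% of all genes, and 1, 3 and 1 lower, beside 18%, 13.4% and 11.3%. Between the recipient DC-depleted pIUT and pIUT libraries 0 of the 79 passed in either direction, beside 9.9% and 3.67% of all genes, and between the maternal ones 8 were higher and 21 lower, beside 20.3% and 27.1%. Of 15 cell cycle inhibitors and genes of quiescence, 8 were lower and 0 higher in maternal DC-depleted pIUT than in uninjected cells, beside 24.7% and 19.8% of all genes, with Klf2, a quiescence factor of lymphocytes, at -7.15. The other comparisons with uninjected cells were less one-sided, with 3 lower and 1 higher in maternal mIUT and 2 lower and 3 higher in maternal pIUT cells. In recipient mIUT, pIUT and DC-depleted pIUT cells 3, 2 and 4 were lower and 4, 2 and 2 higher.

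The likeness of single genes to the members was measured as Pearson's r of log2(CPM + 1) with the mean over the members, across the 8 libraries, with a member left out of the mean when it was compared. The points share libraries and their completeness, and the values are a description. The median r was 0.67 for the members, 0.64 for the other mitosis genes, 0.48 for DNA replication genes, 0.12 for all 13940 genes and -0.70 for mature B-cell markers. Cdca8 was closest to the other 39 members (r = 0.96), and Cenpf, Cenpe and Mki67 were the least close (-0.18, -0.08 and 0.01). Cenpf, Cenpe and Mki67 have 3 of the longest transcripts of the list, of 11.2, 7.91 and 10.3 kb. Of genes in no list, Supt16, a histone chaperone subunit, had the highest r (0.94), followed by Cep83, Kpna1, Slc36a4 and Ankrd27 (0.93, 0.93, 0.92 and 0.91). Supt16 stood at 4.68, 11.4, 82.6 and 15.0 CPM in maternal and 20.6, 24.0, 45.5 and 76.8 CPM in recipient cells.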

How the data were processed

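Total RNA of 8 pooled samples of sorted mononuclear cells was sequenced. The authors deposited estimated counts per gene, which salmon wrote within nf-core for the GRCm39 genome (GENCODE genes) and which carry no normalization, although the study's methods name featureCounts; the submitters' processing notes also list bcl2fastq and StringTie. The counts were rounded to whole numbers, 0 columns were left out, and the clonotype tables were not used. Symbols, positions and lengths of canonical transcripts came from a later GENCODE release (97.99% of identifiers matched), and promoters from RefSeq (GRCm38.p6). TMM factors were computed with edgeR 4.0.16 in R 4.3.3 over 8 libraries, and log2 ratios used a floor of 3 counts. Genes with a mean CPM of at least 1 were the background. Each group has 1 library, so no p-value was computed within an origin. Origin was tested over the 4 treatments with edgeR's quasi-likelihood test, with treatment as a block, over genes with a mean CPM of at least 1, a fit chosen after values were seen. Ratios and this fit were tried on simulated data with a lower dispersion than the study's preset 0.4. Their power in these libraries was therefore not shown. Other steps used Python 3.11.15 (pandas 2.3.3, numpy 2.4.6, matplotlib 3.10.9, scipy 1.17.1). Alternatives were library size, DESeq2 1.42.0 size factors, edgeR's exact-test fold change at a dispersion of 0.4, a floor of 10 counts, a 2-fold threshold, other filters, medians in place of sums, a pseudocount of 0.1 and, chosen after values were seen, transcript length. The members and lists were chosen with earlier results of these data known. All 40 members are accounted for. Named, though not all with values in every library, are the highest and lowest mean CPM of each role group and the extreme ratios of each comparison. Members at 3 counts or fewer and the 5 genes most like the members' mean are also named.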

Additional observations from a re-analysis of the deposited data

Results flagged for a closer look

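Of the members, 5 lay at least 4-fold above the uninjected library in cells of 1 origin and at least 4-fold below it in the other. Members moved opposite ways in this manner after mIUT, pIUT and DC-depleted pIUT numbered 3 of 38, 2 of 39 and 3 of 40 (7.89%, 5.13% and 7.5%), beside 17.8%, 12.5% and 12.7% of all genes, so that it was not more frequent among the members. These differences between origins were not tested, as each rests on 1 library a group. Anln was higher in maternal and lower in recipient cells after mIUT (log2 ratios 6.86 and -2.76), pIUT (5.6 and -2.42) and DC-depleted pIUT (2.04 and -2.05). All of its ratios share the uninjected libraries, with 16 counts in maternal and 3600 in recipient cells. Knl1 was lower in maternal and higher in recipient cells after mIUT (-5.46 and 4.98) and DC-depleted pIUT (-4.01 and 5.02), with 0 and 7 counts in those maternal libraries and 12 counts in recipient uninjected cells. Tpx2 was lower in maternal and higher in recipient cells after mIUT (-6.56 and 8.96), on 0 counts in maternal mIUT and 3 in recipient uninjected cells. Cenpf was lower in maternal and higher in recipient cells after pIUT (-3.05 and 5.24), on 2 counts in recipient uninjected cells. Hmmr was lower in maternal and higher in recipient cells after DC-depleted pIUT (-2.58 and 3.77), with 49 counts in the maternal library and 93 in recipient uninjected cells.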

How the results depend on the processing

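No paired analysis was possible by replicate number because every group has the number 1 alone. The 4 treatments pair maternal with recipient libraries, and the fit over these pairs, chosen after seeing the data, is given with that comparison. The members' median log2 ratio kept its sign in 11 of 12 comparisons under the other scalings, floor and filters. In recipient mIUT against uninjected cells it was 0.32 by TMM and -0.23 by library size. Among members shorter than 3 kb it changed sign in 4 comparisons, to 0.32 (maternal against recipient, DC-depleted pIUT), 0.36 (maternal DC-depleted pIUT against pIUT), -0.07 (recipient DC-depleted pIUT against pIUT) and -0.07 (maternal against recipient, pIUT). With a 2-fold threshold, higher members numbered 20 of 38 (maternal mIUT against uninjected; 27.7% of all genes), 11 and 4 of 40 (DC-depleted pIUT against pIUT, maternal and recipient; 33.8% and 19.5%), and 5, 4 and 6 of 40 (maternal against recipient cells after mIUT, pIUT and DC-depleted pIUT; 22%, 25.6% and 19.7%). Lower members numbered 8 of 38 (maternal mIUT; 41.4%), 6, 6 and 3 of 40 (recipient mIUT, pIUT and DC-depleted pIUT against uninjected; 27.6%, 22.2% and 20.9%), and 18 and 5 of 40 (maternal against recipient cells after mIUT and pIUT; 41.2% and 30.9%). With more than 3 counts required on both sides, higher members numbered 4, 6 and 7 of 32 (recipient mIUT, pIUT and DC-depleted pIUT; 18.7%, 15.1% and 14.2% of all genes), 3 of 38 (maternal DC-depleted pIUT against pIUT; 12.8%) and 4 of 31 (maternal against recipient, uninjected; 15%), and lower members 2 of 31 and 1 of 33 (maternal mIUT and pIUT; 14.7% and 11.4%), and 6 of 35 and 0 of 38 (maternal against recipient after mIUT and pIUT; 12% and 9.11%), since members near 0 were then left out. Scaled by library size, 4 members were lower in recipient mIUT, 0 in recipient DC-depleted pIUT, and 2 were higher after DC-depleted pIUT than after pIUT in recipient cells, as with DESeq2 size factors, by which 1 member was higher in maternal than in recipient pIUT cells. By library size the summed CPM was 1388, 4868 and 4250 in maternal mIUT, pIUT and DC-depleted pIUT cells and 2377, 1762, 4042 and 5170 in the 4 recipient libraries. The ratio of medians of members to replication genes was 0.419, 1.35, 0.766 and 0.169 in maternal and 1.06, 1.43, 0.633 and 0.939 in recipient cells, so that the rank of the maternal DC-depleted pIUT library fell to the lowest; the cause was not tested. The number of members at 3 counts or fewer did not follow the total count, as it was highest (8) in the library with the most counts, recipient uninjected.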
